A study of Mus musculus with 2 samples.

Results

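The 10 genes described here, Hnrnpa1, Hnrnpa2b1, Hnrnpa3, Hnrnpc, Hnrnpd, Hnrnph1, Hnrnpk, Hnrnpl, Hnrnpm and Hnrnpu, encode abundant heterogeneous nuclear ribonucleoproteins (hnRNPs). They were taken by symbol, and each symbol named 1 of the 32285 genes listed. Transcripts were counted in single E14 cells, a mouse embryonic stem cell line of 129/Ola background, grown in medium with 15% serum and 1000 units per mL of leukaemia inhibitory factor. The control group received a control siRNA (small interfering RNA) and the sonKD group an siRNA against Son, both with Lipofectamine 24 hours after seeding. Both groups were harvested 24 hours after transfection, frozen in medium with DMSO, thawed, sorted for live cells by the dye 7-AAD and barcoded on the 10x Genomics Chromium system. Son encodes a nuclear speckle protein that takes part in splicing, and the siRNA lowers it without removing it. Each group held 1 library, so no difference below has a replicate check, and what the knockdown did cannot be told apart from what differs between any pair of libraries.

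hnRNP proteins bind nascent transcripts in the nucleus, package them and steer splicing, export, stability and translation. Many of them hold RNA recognition motifs or KH domains, and many repress splice sites, where SR proteins often act in the opposite direction. They are among the most abundant proteins of the nucleus, and embryonic stem cells express them at high levels.

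Cells were barcodes with at least 2500 unique molecular identifiers (UMIs, each marking 1 captured molecule), at least 1000 genes and at most 10% of UMIs from mitochondrial genes. This rule left 4978 control cells with a median of 7737.5 UMIs and 2731 sonKD cells with a median of 11612 UMIs, and 2 barcodes occurred among the cells of both. Ribosomal protein genes took 20.6% of the UMIs in control cells and 24.0% in sonKD cells. Levels are given as CPM, a gene's UMIs scaled to 1e+06 UMIs of the summed cells. Son stood at 169 CPM in control against 106 CPM in sonKD, or 62.7% of control. All 8 stem cell markers tested were above 10 CPM in the mean of both libraries. The summed markers of fibroblasts, primitive endoderm, trophectoderm and mesoderm stayed between 3.18 and 8.87 CPM per list, and those of neuroectoderm were at 55.5 CPM in control against 54.3 CPM in sonKD, mostly Tubb3.

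The genes lie on 10 different chromosomes of GRCm38 as annotated in GENCODE M21. Hnrnpa1 lies at chr15:103240432-103246692, Hnrnpa2b1 at chr6:51460932-51469894, Hnrnpa3 at chr2:75659261-75669407, Hnrnpc at chr14:52073377-52104028 and Hnrnpd at chr5:99955935-99978938. Hnrnph1 lies at chr11:50376990-50386528, Hnrnpk at chr13:58391142-58403343, Hnrnpl at chr7:28808541-28822266, Hnrnpm at chr17:33646233-33686860 and Hnrnpu at chr1:178321108-178337797. Because the assay reads 3' ends, copies of a 3' end elsewhere can change a count. The last 500 bases of the coding transcripts were therefore compared with all annotated transcripts in words of 50 bases. None of the 10 genes shared a word with another gene listed in the files. Hnrnpa3 shared 46.9% of its words, Hnrnpk 12.5% and Hnrnpc 4.58% with genes that the files do not list, and the other members shared none. Those sharing the most words were processed pseudogenes, apart from Gm6793, annotated as protein coding. How such reads were assigned is not given in the sources used here. On the same strand only Hnrnpm overlaps another listed gene, March2, and on the opposite strand Hnrnpd, Hnrnpk, Hnrnpl and Hnrnpu overlap one each.

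The promoters were read because several of the genes varied together over cells. The 100 bases before the transcription start are shown, from RefSeq on GRCm38.p6, 5′ to 3′ on the strand of the gene. Hnrnpu is shown with Hnrnpa2b1 and Hnrnpd, the members with which it had the highest correlations over cells. Capitals mark a GC box (the letters GGGCGG) or a CCAAT box (named by its letters) on either strand, and GC boxes may overlap.
Hnrnpu, chr1:178337816-178337915, minus strand: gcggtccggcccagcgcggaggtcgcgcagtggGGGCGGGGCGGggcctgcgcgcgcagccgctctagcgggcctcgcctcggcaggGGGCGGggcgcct
Hnrnpa2b1, chr6:51469895-51469994, minus strand: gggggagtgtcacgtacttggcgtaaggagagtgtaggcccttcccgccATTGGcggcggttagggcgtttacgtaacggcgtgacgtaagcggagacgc
Hnrnpd, chr5:99978939-99979038, minus strand: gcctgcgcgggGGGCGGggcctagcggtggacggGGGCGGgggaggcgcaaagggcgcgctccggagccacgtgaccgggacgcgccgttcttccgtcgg

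Hnrnpu held 3 GC boxes and Hnrnpd held 2, and neither held a CCAAT box, whereas Hnrnpa2b1 held 1 CCAAT box and no GC box. The pair with the highest correlation, Hnrnpu and Hnrnpa2b1, therefore shared neither motif in these windows. Of all 10 promoters, 5 held a GC box, against 24.7% of 32851 mouse promoter windows of the same length, and 5 held a CCAAT box, against 18.9%. The other GC boxes were in Hnrnpa1, Hnrnpa3 and Hnrnpl, and the other CCAAT boxes in Hnrnpa1, Hnrnpc, Hnrnpk and Hnrnpl. On both strands, none held TATAA, the core of the TATA box, which 10.2% of all windows held. None held the core of ETS factor sites, searched as CCGGAAG, which 4.52% held. None held part of the NRF1 site, searched as GCGCATG, which 2.01% held. The windows of the members held 5 to 17 CpG dinucleotides, against a median of 3 over all windows. For Hnrnpa2b1 and Hnrnph1, which have several listed starts, the most upstream start was used. The windows rest on RefSeq starts: those of Hnrnpk, Hnrnpl and Hnrnpm lie within the GENCODE gene spans given above and that of Hnrnpc overlaps its span, and 3 of the 5 promoters with a CCAAT box are among these.

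Levels were compared between the libraries to ask how hnRNP transcripts stood after Son knockdown. Together the 10 genes took 4253 CPM (95% Poisson interval 4233 to 4273) in control cells and 3787 CPM (3766 to 3808) in sonKD cells. The summed log2 ratio of sonKD over control was -0.17 (-0.18 to -0.16), or 89.0% of control. All intervals cover counting error only. Genes were compared where the mean of both libraries reached 10 CPM, which 8063 genes and all 10 members did. Of the members, 8 had a ratio below 0, beside 74.9% of all genes, and 2 above 0, beside 25.1%. A ratio of -0.25 or less, that is at least 1.19-fold lower in sonKD, was found for 4 members and for 20.1% of all genes. No member reached 0.25, which 5.07% of all genes did. The median ratio was -0.22 over the members and -0.12 over all genes. The count below 0 thus lay near the background. The count at -0.25 or less lay above it, but with 10 genes this is not read as a difference. That count included Hnrnpa1 at -0.254 (-0.288 to -0.220), Hnrnph1 at -0.281 (-0.362 to -0.201) and Hnrnpl at -0.316 (-0.387 to -0.245). The intervals of these members span the cut, and only that of Hnrnpu lies below it. The count was 3 with at most 5% mitochondrial UMIs, where Hnrnph1 was at -0.240. Both counts depended on the scaling: with TMM factors the summed ratio was -0.077, and 7 members lay below 0, beside 56.6% of all genes. At -0.25 or less there was then no member, beside 8.41% of all genes.

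**Figure D1:**
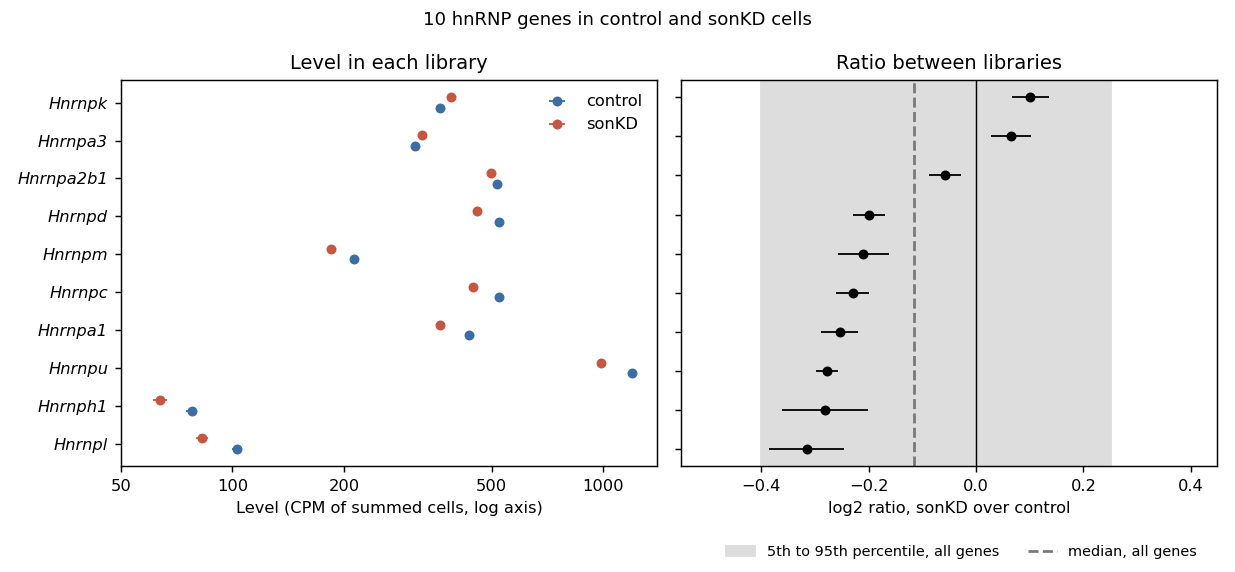
Left, level of each hnRNP gene in CPM (log axis) in control and sonKD cells with 95% Poisson intervals; right, log2 ratio of sonKD over control with 95% counting intervals, over the 5th to 95th percentile (grey) and the median (dashed) of all 8063 genes. Hnrnpk and Hnrnpa3 sit to the right of 0, the other 8 to the left, and all 10 lie inside the grey range of -0.40 to 0.25.

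Hnrnpa1, Hnrnpa2b1 and Hnrnpa3 encode the A/B type proteins, close relatives that shuttle between nucleus and cytoplasm and repress splice sites. Hnrnpa1 was at 433 CPM (427 to 439) in control and 363 CPM (356 to 370) in sonKD, a log2 ratio of -0.25 (-0.29 to -0.22). Hnrnpa2b1, whose protein also takes part in RNA transport, was at 517 CPM (510 to 524) and 496 CPM (489 to 504), a ratio of -0.06 (-0.09 to -0.03). Hnrnpa3 was at 310 CPM (305 to 316) in control and 324 CPM (318 to 331) in sonKD, a ratio of 0.06 (0.03 to 0.10). The A/B genes thus did not share a direction between the libraries. Hnrnpa2b1 also changed direction with the scaling, to 0.032 under TMM and to 0.015 once ribosomal protein and mitochondrial genes were left out of the total.

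Hnrnpc and Hnrnpu encode proteins that stay in the nucleus. Hnrnpc binds uridine-rich RNA and forms part of the particle on nascent transcripts, and Hnrnpu, also called scaffold attachment factor A, binds RNA and chromatin. Hnrnpu had the highest count of the family, at 1192 CPM (1181 to 1202) in control and 983 CPM (972 to 994) in sonKD, a log2 ratio of -0.28 (-0.30 to -0.26). Hnrnpc was at 523 CPM (516 to 530) and 446 CPM (439 to 453), a ratio of -0.23 (-0.26 to -0.20). Both genes were lower in sonKD, at percentile 15.0 (Hnrnpu) and 23.4 (Hnrnpc) of the ratios of all genes. The intervals of the libraries did not overlap for either, and how many of all genes did the same in cells was not counted.

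Hnrnph1, Hnrnpl and Hnrnpm encode splicing regulators that bind G-rich, CA-rich and GU-rich RNA. Hnrnpl was at 103 CPM (99.9 to 106) in control and 82.7 CPM (79.6 to 85.9) in sonKD, and its log2 ratio of -0.32 (-0.39 to -0.25) was the lowest of the 10. Hnrnph1 was at 77.6 CPM (74.9 to 80.4) and 63.9 CPM (61.1 to 66.7), a ratio of -0.28 (-0.36 to -0.20). Hnrnpm was at 213 CPM (208 to 217) and 184 CPM (179 to 189), a ratio of -0.21 (-0.26 to -0.16). All 3 were lower in sonKD, and they had the fewest UMIs of the family, with 3175 in control and 2046 in sonKD for Hnrnph1.

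Hnrnpd, also called AUF1, binds AU-rich elements and acts on mRNA decay, and Hnrnpk binds cytidine-rich RNA through KH domains. Hnrnpd was at 523 CPM (516 to 530) in control and 456 CPM (448 to 463) in sonKD, a log2 ratio of -0.20 (-0.23 to -0.17). Hnrnpk was at 362 CPM (356 to 368) and 388 CPM (381 to 395), and its ratio of 0.10 (0.07 to 0.14) was the highest of the family. Hnrnpk lay at percentile 87.2 and Hnrnpa3 at 83.5 of the ratios of all genes, while Hnrnpl lay at 10.8. The 2 genes above 0 were also those with the largest share of 3' end words found in unlisted pseudogenes, and the part of this in the result was not tested.

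Per kilobase of the longest coding transcript, the mean level over both libraries was highest for Hnrnpa2b1 at 293 CPM per kb, followed by Hnrnpa1 at 207 and Hnrnpc at 170. Hnrnpu, with a longest transcript of 7640 bases, came next at 142 CPM per kb, and Hnrnpk followed at 126. Hnrnpd at 71.9, Hnrnpa3 at 61.6, Hnrnpm at 50.4, Hnrnpl at 34.7 and Hnrnph1 at 29.2 CPM per kb made up the rest of the order. The assay counts transcript ends, so a level per length is only a rough scale.

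Depth differed between the libraries, so the ratios were also taken in cells of equal depth range, each range holding its lower bound and not its upper one. In cells with 8000 to 16000 UMIs, 2118 in control and 1967 in sonKD, the summed log2 ratio was -0.25 (-0.26 to -0.24). There 9 members lay below 0, beside 77.7% of all genes, with Hnrnpu at -0.41 and Hnrnpk alone above 0 at 0.11, and the median of all genes was -0.18. In cells with 5000 to 8000 UMIs, all 10 members lay below 0, from -0.59 for Hnrnpu to -0.21 for Hnrnpk, beside 63.4% of all genes. The summed ratio there was -0.42, and the median of all genes was -0.13. In cells with at least 16000 UMIs, 149 in control and 329 in sonKD, the summed ratio was 0.016 (-0.016 to 0.047) and 5 members lay on each side of 0. Of all genes, 55.8% lay below 0 there, with a median of -0.039. Hnrnpa2b1 was at 0.33 and Hnrnpa3 at 0.21 in these deepest cells, and Hnrnpu was at 0.0097 (-0.050 to 0.070). In cells with 2500 to 5000 UMIs the summed ratio was -0.14 (-0.21 to -0.07) and 8 members lay below 0, beside 47.6% of all genes, whose median was 0.025. In this range Hnrnpa2b1 was at 0.40 (0.23 to 0.58) while Hnrnpd was at -0.59 (-0.82 to -0.36).

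**Figure D2:**
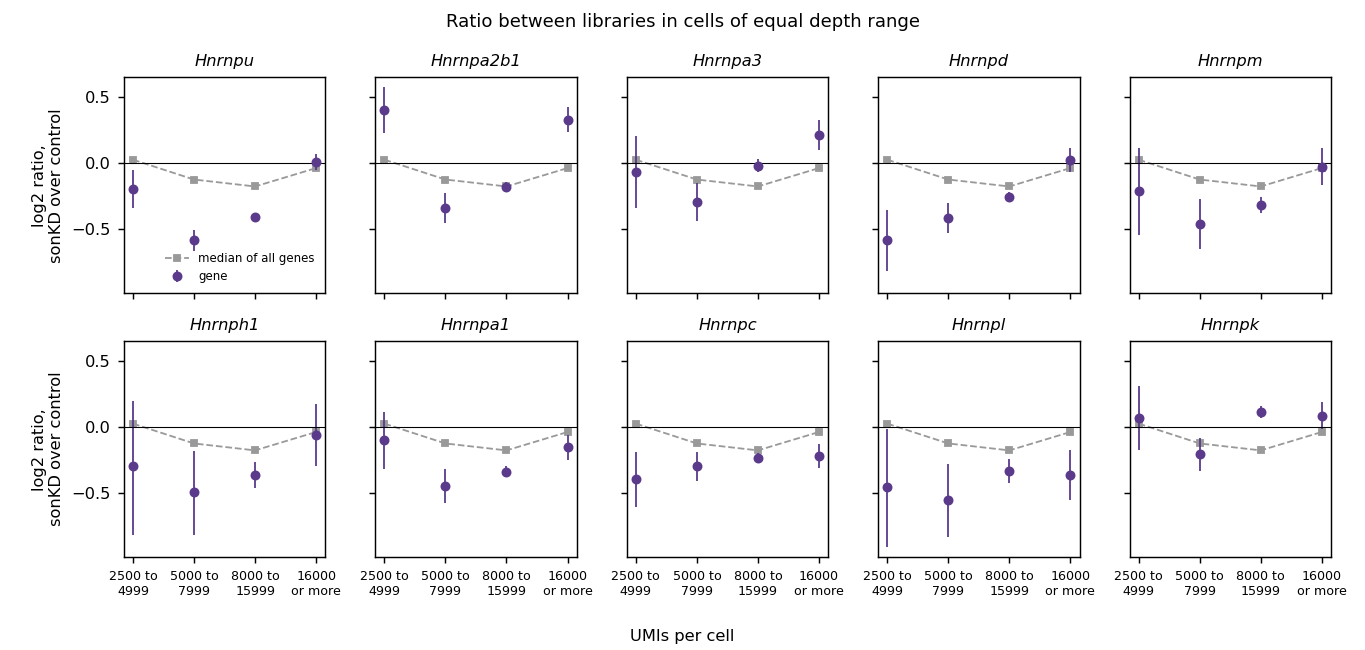
log2 ratio of sonKD over control for each hnRNP gene in cells of 4 ranges of UMIs per cell, with 95% counting intervals; grey squares give the median of all 8063 genes in the same cells. Hnrnpc and Hnrnpl stay below 0 in all 4 ranges with intervals that exclude 0, whereas Hnrnpu moves from -0.59 at 5000 to 8000 UMIs to 0.0097 at 16000 or more. The share of all genes that stay below 0 in all 4 ranges was not counted.

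Hnrnpc and Hnrnpl were lower in sonKD in all 4 depth ranges, with intervals below 0 in each. Hnrnpa1, Hnrnph1 and Hnrnpm were below 0 in all 4 as well, with intervals that included 0 in the shallowest range and, for Hnrnph1 and Hnrnpm, in the deepest range too. How many of all genes stayed below 0 in all 4 ranges was not counted, so neither result is read as particular to these members. Within sonKD the summed level was 3278, 3038, 3767 and 4114 CPM from the shallowest to the deepest range, and within control 3607, 4051, 4479 and 4069 CPM. It was lowest at 5000 to 8000 UMIs in sonKD and highest at 8000 to 16000 UMIs in control. Malat1, a nuclear noncoding RNA, was at 3648 CPM in control against 6721 CPM in sonKD among the shallowest cells, so cells of 1 depth range differed in composition between the libraries. Its part in the result was not tested. By mitochondrial share, the summed ratio was -0.10 in cells with up to 2.5%, -0.16 from 2.5 to 5% and -0.17 from 5 to 10%, with 8 members below 0 in each range, beside 58.4%, 74.9% and 70.9% of all genes.

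Barcodes outside the cell rule were read as a background. In droplets with 100 to 500 UMIs, which mostly hold free RNA, the summed level was 2768 CPM in control against 2353 CPM in sonKD, a log2 ratio of -0.23 (-0.25 to -0.22). The same 8 members lay below 0 there as in cells, beside 80.0% of all genes, so this count equals the background. Hnrnpk (0.17) and Hnrnpa3 (0.12) lay above 0, and the median of all genes was -0.24. The level in cells over that in droplets was 2.56 in control and 2.93 in sonKD for Hnrnpu, and 2.58 and 2.64 for Hnrnpl. For Hnrnpc it was 0.94 and 0.88, so Hnrnpc was no higher in cells than in the free RNA, unlike the other 9 members, which lay between 1.18 and 2.93. In barcodes with more than 10% mitochondrial UMIs, 625 in control and 1056 in sonKD, the summed ratio was -0.18 (-0.23 to -0.14).

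To compare single cells at equal depth, each cell was thinned to 4000 UMIs, which kept 4710 control and 2622 sonKD cells and left out 268 and 109. The 10 genes together gave a mean of 16.9 UMIs per thinned control cell (SD over cells 5.37) and 14.7 per thinned sonKD cell (SD 5.13). The lowest cell held 3 in either library, the median 17 and 14, and the highest 45 and 37, and no cell was without an hnRNP UMI. The distributions overlapped over nearly their whole range.

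In thinned control, 97.7% of cells held a Hnrnpu UMI (exact binomial interval 97.2 to 98.1), and in sonKD 96.0% did (95.2 to 96.7). Hnrnpc was found in 86.6% and 82.2%, Hnrnpd in 85.9% and 81.1%, and Hnrnpa2b1 in 84.4% and 80.9%. Hnrnpa1 was found in 80.3% and 73.8%, a larger gap than that of the genes named before it. Hnrnpk was found in 75.4% and 77.8%, and Hnrnpa3 in 69.3% of both. Hnrnpm was found in 55.2% and 51.4%, Hnrnpl in 33.3% and 27.0%, and Hnrnph1 in 26.8% and 22.1%. The order of the libraries was the same as in the CPM, except for Hnrnpa3, whose shares did not differ at this depth. The gap of Hnrnpa2b1 depended on draw and depth. It was found in 84.4% and 83.0% in another random draw, and in 68.5% and 68.6% of cells thinned to 2500 UMIs. No cell type that lacks these genes was at hand as a background. Without thinning the deeper sonKD cells had the higher share for all members but Hnrnpu, for example 44.6% in control and 49.5% in sonKD for Hnrnph1.

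Apart from Hnrnph1 and Hnrnpl, each gene varied over cells by more than counting noise in control, by an amount that differed between members. In control the variance was 1.02 times the mean for Hnrnph1 and 1.01 times for Hnrnpl, and thus near counting noise. The variation beyond counting noise was expressed as a coefficient of variation, in percent of the mean. Hnrnpa2b1 varied by 34.3% in control and 37.7% in sonKD, and Hnrnpu by 32.3% and 33.8%. Hnrnpc varied by 15.0% and 14.9%, the lowest value of the 10 in control, and its variance was 1.05 and 1.04 times its mean. Hnrnpm was at 33.1% and 27.4%, Hnrnpa3 at 29.6% and 26.2%, Hnrnpa1 at 27.5% and 25.2%, and Hnrnpd at 21.9% and 31.4%. Hnrnpk was at 21.6% in control and 9.19% in sonKD, where its variance was 1.01 times its mean and thus near counting noise. For Hnrnph1 and Hnrnpl, with under 0.5 UMI per thinned cell, no value is given, and the variance of Hnrnph1 in sonKD was below the counting noise. The sum of the 10 varied by 20.5% in control and 23.2% in sonKD.

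Co-variation was described by Pearson's r over thinned cells within each library. Cells of a library share its preparation, and counts are a share of 4000 UMIs, so r is a description with no p. In such sparse counts r is pulled towards 0, and a weak r between 2 genes is not read as a finding. The median r over the 45 pairs was 0.031 in control and 0.052 in sonKD. As a background, 1205 genes averaged 0.5 UMI or more per thinned cell in both libraries, and over their 725410 pairs the median was 0.0035 and 0.0033. An r above 0 was found for 43 pairs in control, beside 54.7% of all gene pairs, and for 42 in sonKD, beside 54.2%. An r of at least 0.05 was found for 12 pairs in control, beside 8.08% of all gene pairs, and for 26 in sonKD, beside 8.25%. Among the 28 pairs of the 8 members that passed that minimum, 10 reached it in control (35.7%) and 20 in sonKD (71.4%). The count in sonKD depended on depth: in cells with 8000 to 16000 UMIs it was 13 of 45 in control and 16 of 45 in sonKD, beside 9.64% and 7.28% of all gene pairs. The libraries are thus not read as different in this respect.

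**Figure D3:**
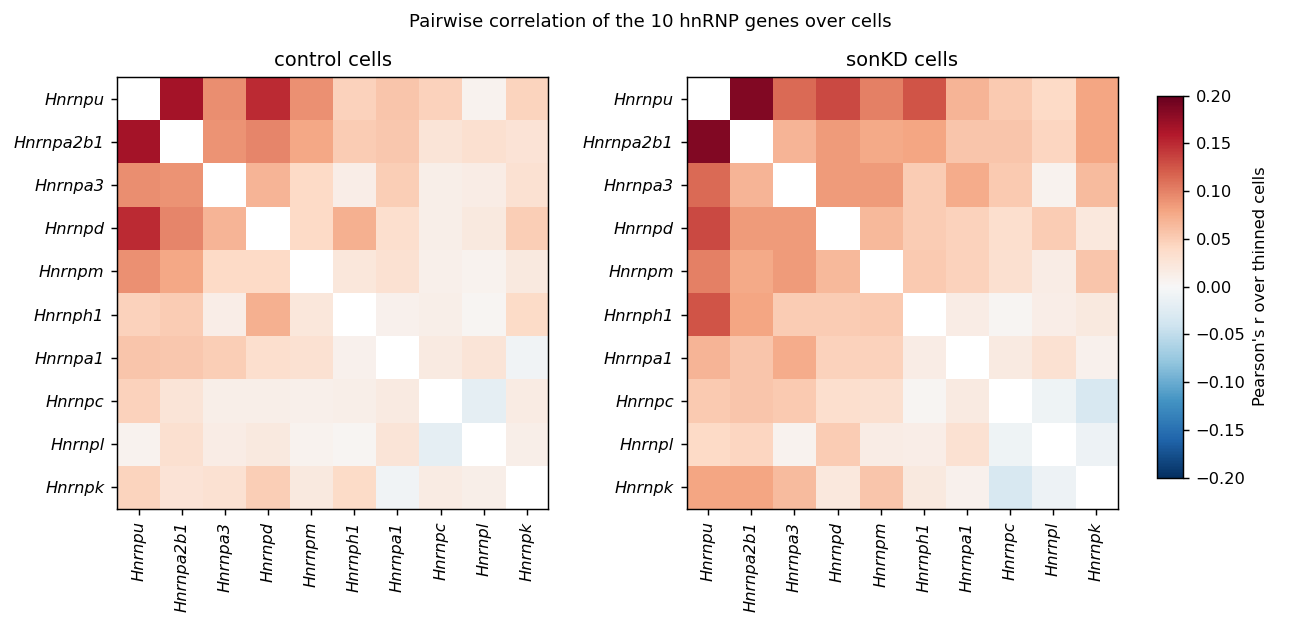
Pearson's r over cells thinned to 4000 UMIs for each pair of the 10 hnRNP genes, in 4710 control cells (left) and 2622 sonKD cells (right); the diagonal is blank. Hnrnpu with Hnrnpa2b1 is the darkest square in both panels, at 0.166 and 0.185, and the rows of Hnrnpc and Hnrnpl are pale.

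Hnrnpu and Hnrnpa2b1 had the highest r in both libraries, 0.166 in control and 0.185 in sonKD. Hnrnpu with Hnrnpd came next in both, at 0.149 and 0.132. After these the order differed: Hnrnpa2b1 with Hnrnpd was the next in control (0.098, and 0.085 in sonKD), and Hnrnpu with Hnrnph1 the next in sonKD (0.127, and 0.046 in control). Hnrnpu with Hnrnpa3 was at 0.092 and 0.114. By contrast, Hnrnpa1 with Hnrnpk was at -0.0068 and 0.0090, and Hnrnpc with Hnrnpl at -0.017 and -0.0088. The A/B relatives were not the closest pairs. Hnrnpa2b1 with Hnrnpa3 was at 0.089 and 0.068, Hnrnpa1 with Hnrnpa2b1 at 0.054 and 0.056, and Hnrnpa1 with Hnrnpa3 at 0.049 and 0.074.

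Each member was then set against the sum of the other 9. Hnrnpu had an r of 0.223 in control and 0.259 in sonKD, which 2 of the 1197 other genes exceeded in either library when set against the sum of all 10. Hnrnpa2b1 followed at 0.20 and 0.22, exceeded by 4 and 6 genes, and Hnrnpd at 0.173 and 0.166. Hnrnpa3 was at 0.131 and 0.175, and Hnrnpm at 0.111 and 0.153. At the other end, Hnrnpk was at 0.065 and 0.088, Hnrnpc at 0.049 and 0.067, and Hnrnpl at 0.028 and 0.054. Some 410 of the other genes exceeded Hnrnpl in control and 308 in sonKD. Hnrnpu, Hnrnpa2b1, Hnrnpd, Hnrnpa3 and Hnrnpm thus ranked above the other 5 in both libraries.

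Genes outside the family were ranked by r with the sum of the 10. Ncl, which encodes the nucleolar protein nucleolin, led in both libraries at 0.264 in control and 0.281 in sonKD. Caprin1, an RNA-binding protein of stress granules, came second at 0.228 and 0.277. In control Akap12 (0.206), Hspa4 (0.202), a chaperone of the HSP110 family, and Msh6 (0.199), of mismatch repair, followed. In sonKD these places went to Hspa4 (0.243), Lmnb1 (0.238), which encodes lamin B1, and Msh6 (0.223). Of the 50 highest genes of each library, 38 were shared, or 76% of each, and they included Hnrnpab and Hnrnpf of the wider family. Among the lowest r were those of Rpsa (-0.273), Rpl14, Rpl13 and Rpl10a in control and of Rpsa (-0.268), Rps19, Cox4i1 and Rps4x in sonKD, of which all but Cox4i1 are ribosomal protein genes.

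Cells were next split into 3 classes of about equal size by their ribosomal protein UMIs. From the lowest to the highest class, the summed hnRNP count went from 19.1 to 14.6 UMIs in control and from 16.9 to 12.3 in sonKD, a quotient of 0.766 and 0.729. More ribosomal UMIs leave fewer of the 4000 for other genes, and what remained had a quotient of 0.919 and 0.911, while the median of the 1130 other genes was 1.05 and 0.965. Hnrnpa2b1 had a quotient of 0.622 in control and 0.651 in sonKD and Hnrnpu 0.649 and 0.639. Hnrnpa1 was at 0.930 and 0.917, Hnrnpc at 0.956 and 0.902, and Hnrnpk at 1.00 and 0.821. Hnrnpa1 and Hnrnpc thus stood close to the quotient of the remaining UMIs, while Hnrnpu and Hnrnpa2b1 lay well below it in both libraries. The 5th percentile of the 1130 genes was lower still, at 0.543 in control and 0.612 in sonKD. The low quotients of Hnrnpu and Hnrnpa2b1 are therefore not read as particular to them.

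**Figure D4:**
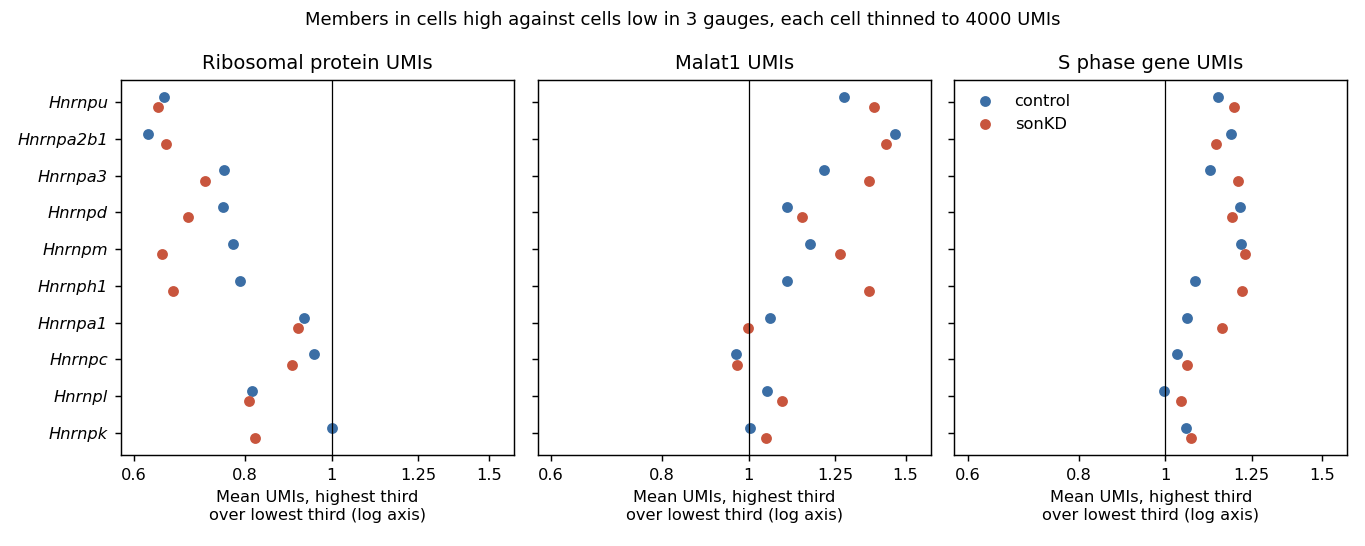
Mean UMIs of each hnRNP gene in the highest over the lowest of 3 classes of cells (log axis), with classes set by ribosomal protein UMIs, Malat1 UMIs or UMIs of 16 S phase genes, in thinned control and sonKD cells. Hnrnpu and Hnrnpa2b1 lie between 0.622 and 0.651 for ribosomal UMIs and between 1.28 and 1.46 for Malat1, and Hnrnpc lies between 0.902 and 1.06 in all 3 panels.

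Malat1 UMIs gave the opposite order. From the lowest to the highest class of cells by Malat1 UMIs, Hnrnpa2b1 was 1.46 times as high in control and 1.43 times in sonKD, and Hnrnpu 1.28 and 1.38 times. Hnrnpc was at 0.968 and 0.970 and Hnrnpa1 at 1.06 and 0.998, while the median of 1204 genes was 0.903 and 0.933. The 5th to 95th percentile of these genes, 0.759 to 1.58 in control and 0.788 to 1.48 in sonKD, held both Hnrnpa2b1 and Hnrnpu. The summed hnRNP count was 1.12 times as high in control and 1.15 times in sonKD in cells rich in S phase transcripts, where the median of 1198 genes was 1.02 and 1.04. For G2/M transcripts these values were 1.02 and 1.03, beside 1.00 and 1.02. Mitochondrial UMIs gave 0.901 and 0.874, beside 0.901 and 0.910 for 1194 genes. Son had a mean of 0.675 and 0.431 UMI per thinned cell, and its r of 0.048 and 0.044 with the summed members is too weak to be read. The summed members had an r of 0.161 in control and 0.257 in sonKD with the log10 of the UMIs a cell held before thinning, and of -0.347 and -0.379 with ribosomal UMIs. With depth, mitochondrial and ribosomal shares taken out by a linear fit, 5 pairs in control and 8 in sonKD had an r of at least 0.05. Among the 28 pairs of the 8 more abundant members it was 4 and 6, beside 1.70% and 3.34% of all gene pairs under the same fit, and Hnrnpu with Hnrnpa2b1 was at 0.077 and 0.116.

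As the background for the lists below, 74.9% of all 8063 genes had a ratio below 0, with a median of -0.12. Of all genes, 20.1% lay at -0.25 or less and 5.07% at 0.25 or more. Of 22 other hnRNP family genes, 21 reached 10 CPM, and 19 of these had a ratio below 0. Among them 6 lay at -0.25 or less, and the median of the list was -0.18. Their lowest ratios were those of Hnrnpa0 (-0.51), an A/B relative with a single coding exon, and Hnrnpul2 (-0.38), a relative of Hnrnpu. Their highest were Hnrnph3 at 0.07 (-0.0060 to 0.14) and Hnrnpf at 0.026 (-0.00068 to 0.053), both relatives of Hnrnph1, with intervals that included 0. Among genes that act on hnRNP proteins, the import receptors Tnpo2 and Tnpo1 were at -0.29 and -0.20 and the arginine methyltransferases Prmt1 and Prmt5 at -0.17 and -0.04 (-0.12 to 0.04). Of 12 SR protein genes at 10 CPM, 11 lay below 0 and 4 at -0.25 or less, with Srsf6 (-0.42) and Srsf9 (-0.27) lowest and Srsf10 (0.05) and Tra2b (-0.06) highest. Of 19 core snRNP protein genes, 11 lay below 0, none at -0.25 or less and 4 at 0.25 or more, with Snrpf (0.90) and Snrpg (0.59) highest and Snrnp27 (-0.24) and Snrnp40 (-0.21) lowest. In thinned cells the hnRNP sum had an r of 0.295 and 0.289 with the other hnRNP genes, 0.104 and 0.120 with the SR genes and -0.056 and -0.045 with the core snRNP genes. These lists hold different numbers of UMIs, which limits a comparison of their r.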

How the data were processed

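The libraries, 1 control and 1 sonKD, were analysed. The values are the deposited UMI counts, not normalized, which the authors made with Cell Ranger 7.1.0, per the file headers, on mm10, per the submitters' processing notes. Which annotation was used, and whether intronic reads were counted, is not given in the sources used here. The libraries held 71046373 UMIs (control) and 60352438 UMIs (sonKD), of which cells held 57.6% and 53.1%.

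Counts were summed over cells and scaled to CPM. Intervals are at 95%: exact Poisson for sums, exact binomial (Clopper-Pearson) for shares, exact conditional binomial for ratios. In the comparison of all genes, counts under 3 were set to 3. No test was made, since each group held 1 sample. Thinning drew UMIs without replacement with a fixed seed. Doublets were kept: Scrublet in scanpy 1.11.5 called 0.0603% of control and 0.0366% of sonKD cells, under the 0.5% of a working call, so an alternative removed the highest scores at 0.8% per 1000 cells, or 3.98% and 2.20%. TMM factors came from edgeR 4.0.16. Scripts were tested on simulated data. Promoters matched for all 10 genes.

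The members and lists were chosen with earlier results of these data known. Named genes were Son, Malat1, the members, the 2 highest and 2 lowest ratios of each list, and the 5 highest and 5 lowest r in each library, of which some are not reported here. Other genes were named after their values were seen. The depth ranges other than 8000 to 16000 UMIs were chosen after the data were seen.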

Additional observations from a re-analysis of the deposited data

Results flagged for a closer look

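Droplets with 100 to 500 UMIs lie outside the cell rule, and 2 of the 10 hnRNP genes were higher there in sonKD than in control with intervals that did not overlap, as were 6.18% of the 8063 genes. Hnrnpa3 was at 202 CPM in sonKD droplets and 186 CPM in control droplets. Hnrnpk was at 286 CPM in sonKD droplets and 253 CPM in control droplets. These were also the 2 members with a higher level in sonKD cells, and the free RNA comes from the same preparations as the cells.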

How the results depend on the processing

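No paired analysis was possible because each group held 1 sample and no test was made. Depth limits Hnrnph1 and Hnrnpl most, and cells differed in depth between the libraries. The summed ratio, -0.17 in the report, was -0.153 with at most 5% mitochondrial UMIs and -0.180 as a mean of CPM per cell. It was -0.077 with TMM factors and -0.095 without mitochondrial and ribosomal protein genes, and with either scaling 0 members lay at -0.25 or less, against 4 (8.41% of all genes with TMM). By depth it was -0.138 (2500 to 5000 UMIs), -0.415 (5000 to 8000), -0.25 (8000 to 16000) and 0.016 (16000 or more). In the deepest cells the sign changed but the interval (-0.016 to 0.047) included 0. There 5 members lay below 0 and 1 at -0.25 or less, beside 55.8% and 20.2% of all genes. At 5000 to 8000 UMIs 9 members lay at -0.25 or less, beside 36.1% of all genes. The cause was not tested.

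Ratios of single members that changed sign were those of Hnrnpa2b1 with TMM factors (0.032), without mitochondrial and ribosomal protein genes (0.015), at 2500 to 5000 UMIs (0.40) and at 16000 or more (0.33), of Hnrnpa3 at -0.066, -0.30 and -0.019 in the ranges from 2500, 5000 and 8000 UMIs, of Hnrnpk at 5000 to 8000 UMIs (-0.21), and of Hnrnpd (0.023) and Hnrnpu (0.0097) at 16000 or more. Of 110 values of single members, 60 stayed inside the counting interval, 40 moved and 10 changed sign.

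The share of all genes below 0, 74.9%, was 72.6% at 50 CPM, 58.6% with no filter and 56.6% with TMM factors. The share at -0.25 or less, 20.1%, was 15.2%, 23.3% and 8.41%.

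The median r of member pairs was 0.078 in control and 0.119 in sonKD for log-scaled counts of unthinned cells, where 32 and 40 pairs reached 0.05, beside 30.8% and 40.8% of all gene pairs, and depth differs between cells there by construction. In control, 20 pairs reached it at 6000 UMIs (12.9% of all gene pairs) and 5 after a linear fit that included the ribosomal share (1.70%). In sonKD, 14 pairs reached it at 2500 UMIs (4.86% of all gene pairs), 16 in cells with 8000 to 16000 UMIs (7.28%), 16 after a fit on depth and mitochondrial share (5.48%) and 8 once the ribosomal share was added (3.34%). The variation of the summed members, 20.5% in control, was 21.8% at 2500 UMIs and 19.4% in cells with 8000 to 16000 UMIs, and in sonKD, 23.2%, it was 21.4% at 6000 UMIs and 21.7% with at most 5% mitochondrial UMIs. Another random draw, chosen after the data were seen, as was the fit with the ribosomal share, kept these summaries within counting error or 1.5 times the main count.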
